A study of Mus musculus with 6 samples.

Results

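The genes described here are 10 components of the Wnt pathway in the mouse ovary: the Tcf/Lef transcription factors Tcf7l1, Tcf7l2, Tcf7 and Lef1, beta-catenin (Ctnnb1), the ligand Wnt4, the receptors Fzd1 and Fzd4, the feedback inhibitor Axin2 and the secreted enhancer Rspo1. They were taken by name, as every probe whose gene name in the scanner files was 1 of these 10, which gave 14 of the 39429 probes on the array and 10 of 31791 gene names. RNA came from ovaries of 20-week-old female C57BL/6J mice, 3 labelled wild type and 3 labelled SeBP1 knockout, the latter lacking selenium-binding protein 1 (gene symbol Selenbp1). The labels name no treatment, give no further detail of the deletion, and do not say whether each RNA came from a separate animal, so errors and p-values describe the spread between these samples. Each sample carried the dye Cy3 alone, on 1 Agilent mouse array of its own.

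The genes were chosen by name around Tcf7l1, which was itself selected on its genotype difference on these same arrays. Differences between knockout and wild type are therefore given for the 10 genes as descriptions, with standard errors and without p-values of their own. All values are log2 of the processed intensity minus log2 of the 75th percentile of that array, so that a difference of 1 is a doubling. The level of a probe depends on its sequence as well as on the transcript, so levels are compared between ovaries and never between probes. In RNA of an ovary, fewer cells of a type and less RNA per cell cannot be told apart.

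The arrays lay on 2 slides, scanned separately: slide 1 held wild types 1 and 2, and slide 2 held wild type 3 with knockouts 1, 2 and 3. The difference within slide 2, given for each probe of the 10 genes, rests on wild type 3 as its single wild type. The share of spots well above background was 61.6% in wild type 3 and up to 69.3% elsewhere, and no spot was saturated. Repeated spots of a probe varied by a median of 6.46% of their mean in wild type 3 and by 2.35% to 3.34% elsewhere. Its limma array weight was also the lowest, at 0.35 against 0.44 to 5.30, so differences within slide 2 rest on the least precise array. Granulosa, oocyte and luteal markers were all measured, in 9 of 9, 8 of 8 and 7 of 7 listed genes, and T cells were represented by 6 of 8, with Cd8a not well above background on any array. The targeted gene, Selenbp1, differed by -2.75 (standard error 0.13, limma adjusted p = 0.0104). Its probe was the 1 probe called at an adjusted p under 0.05 among 24415 tested (0.0041%), and 964 probes (3.95%) had an unadjusted p below that value. That count of 1 became 19 when wild type 3 was left out. It became 0 when wild type 1, wild type 2, knockout 1 or knockout 3 was left out, and also with slide as a fixed block and on slide 2 alone. Selenbp1 itself differed by -2.74 in both of those fits, with limma adjusted p-values of 0.0792 and 0.347.

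In the canonical Wnt pathway, secreted Wnt ligands bind Frizzled receptors together with Lrp5 or Lrp6. This halts the destruction complex built on Axin and Apc, and beta-catenin then enters the nucleus and acts with DNA-binding Tcf/Lef factors. Without beta-catenin the same factors hold target genes down with Groucho/Tle corepressors, and Tcf7l1 is known mainly as such a repressor. R-spondins raise the pathway's output by sparing Frizzled receptors from the ubiquitin ligases Znrf3 and Rnf43. In the ovary, Wnt4 and Rspo1 are known for female gonad development, and Fzd1 and Fzd4 for roles in ovulation and in luteal and vascular function.

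Every probe read by the arrays is 60 bases long. Printed here are the probes of Wnt4 and of Tcf7l2 probe 2, because Wnt4 was highest and Tcf7l2 probe 2 lowest in wild type 3 and knockout 1. The Wnt4 probe lies on the plus strand between positions 136851690 and 136852258 of chromosome 4 (mm9, the build in the file headers). It spans more bases there than its own length and so crosses an exon junction, as does the Lef1 probe between 130907851 and 130926012 of chromosome 3. The Tcf7l2 probe 2 lies on the plus strand of chromosome 19 at 55994029 to 55994088. The place of the other probes in exons or untranslated regions was not worked out here.
Wnt4 probe: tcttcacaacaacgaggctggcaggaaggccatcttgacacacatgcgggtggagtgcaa
Tcf7l2 probe 2: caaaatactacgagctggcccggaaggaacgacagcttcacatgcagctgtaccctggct

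Tcf/Lef factors bind DNA around a core that ends in CAAAG, and the 250 bases before each gene's start in RefSeq (GRCm38.p6) were searched on both strands for TCAAAG and ACAAAG. The first motif was found before 2 of the 10 genes, Lef1 and Fzd1, and in 2 of their 16 start windows, against 13.8% of all 32851 windows of this length. The second was found before 4 of the 10 genes, Fzd1, Lef1, Tcf7l1 and Tcf7l2, and in 4 of the 16 windows, against 16.5% of all. Shown are the windows of Tcf7l1, the gene the description starts from, and of the 2 genes that hold the first motif, with matches to either motif in capitals. The Tcf7l1 window, chr6:72789046-72789295 on the minus strand, holds 1 match to the second motif 28 bases before the start. The Lef1 window, chr3:131156044-131156293 on the plus strand, belongs to the most downstream of 4 listed starts and holds 3 matches. The Fzd1 window, chr5:4758217-4758466 on the minus strand, holds 2. A match is a description of the letters, not of binding.
Tcf7l1: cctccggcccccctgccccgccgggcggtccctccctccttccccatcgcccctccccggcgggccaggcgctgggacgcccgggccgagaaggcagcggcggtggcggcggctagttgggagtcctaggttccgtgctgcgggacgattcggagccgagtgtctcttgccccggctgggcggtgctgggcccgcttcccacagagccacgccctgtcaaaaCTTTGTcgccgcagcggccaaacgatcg
Lef1: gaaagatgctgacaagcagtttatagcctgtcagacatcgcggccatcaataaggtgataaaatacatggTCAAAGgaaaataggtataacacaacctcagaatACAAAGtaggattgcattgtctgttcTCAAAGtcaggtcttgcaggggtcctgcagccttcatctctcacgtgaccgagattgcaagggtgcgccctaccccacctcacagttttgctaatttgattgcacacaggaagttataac
Fzd1: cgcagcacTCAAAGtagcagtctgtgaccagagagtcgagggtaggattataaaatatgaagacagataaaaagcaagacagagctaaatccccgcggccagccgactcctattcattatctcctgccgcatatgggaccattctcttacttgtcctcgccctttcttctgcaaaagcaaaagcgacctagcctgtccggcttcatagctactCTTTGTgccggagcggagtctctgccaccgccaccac

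Of the 14 probes, 9 had a positive and 5 a negative difference (knockout minus wild type), and the median was 0.046 against -0.017 over all 24415 tested probes. None was called at an adjusted p under 0.05 by limma, and 2 of 14, Tcf7l1 and Axin2 probe 1, had an unadjusted p under 0.05 (3.95% of all tested probes). Tcf7l1 was selected on this same difference, so nothing is read from that count. The genotypes did not overlap in 2 of the 14 probes, Tcf7l1 and Axin2 probe 1, both higher in the knockout. Over all probes measured on every array the groups did not overlap in 8.66%, made up of 3.97% with the knockout higher and 4.69% with it lower. All 14 probes were well above background on 6 of 6 arrays.

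**Figure D1:**
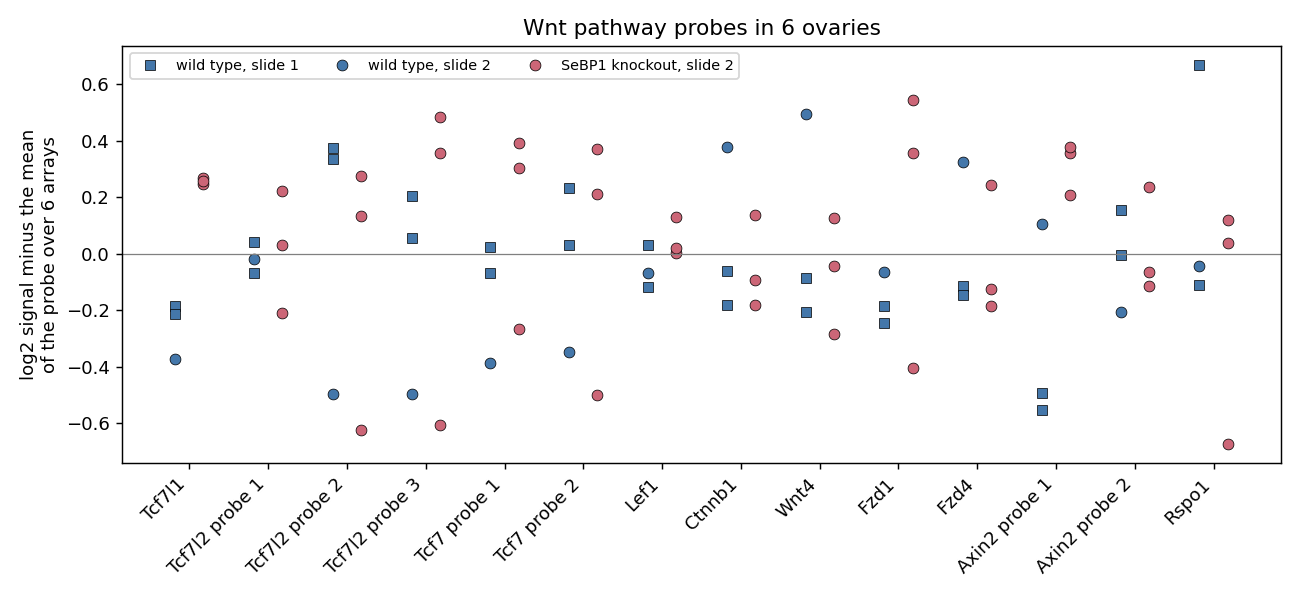
Log2 signal of each of the 14 probes on each of the 6 arrays, minus the mean of the probe over the 6 arrays. Squares are slide 1 and circles slide 2, blue wild type and red knockout; Tcf7l1 and Axin2 probe 1 are the probes whose genotypes do not overlap, and in Axin2 probe 1 the squares lie apart from all circles.

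Tcf7l1 was higher in all 3 knockout ovaries than in any wild type. Its log2 signal was -1.78, -1.81 and -1.97 in wild types 1, 2 and 3 and -1.33, -1.35 and -1.34 in knockouts 1, 2 and 3. The lowest knockout lay 0.44 above the highest wild type. The means were -1.85 ± 0.10 (SD, n = 3) and -1.34 ± 0.0060 (SD, n = 3) and differed by 0.51 (standard error 0.10), or 1.43-fold. The spread among knockouts was far below the error that the scanner software gives for this spot, up to 10.1% of its signal. Over all tested probes, 5.73% differed between genotypes by at least as much in either direction. The difference was 0.63 within slide 2, where wild type 3 had the lowest level of all, and 0.45 to 0.55 with each array left out in turn. Its only probe lies at 72576377 to 72576436 of chromosome 6, and 44 of its 60 bases are A or T.

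Markers of T cells, which are known to express Tcf7 and Lef1, were by their median also higher in each knockout than in any wild type. Pearson's r between this median and Tcf7l1 was 0.89 over the 6 arrays. Since Tcf7l1 was chosen for its own difference and was nearly level among the knockouts, this r carries no test. The median of 6 such genes, each centred on its own mean over the arrays, was -0.09, -0.15 and -0.32 in wild types 1 to 3 and 0.05, -0.01 and 0.22 in knockouts 1 to 3. Of the 6 genes 5 had a positive difference, among them Cd3d at 0.84 (standard error 0.27, limma adjusted p = 1.00) and Cd3g at 0.65 (standard error 0.19, limma adjusted p = 1.00). Cd28 differed by 1.23, was highest in knockout 2 and was well above background on 2 of the 3 wild types. Cd3e, Lck and Cd4 were nearly level, with differences of 0.015, 0.031 and -0.028. The summed level of the list, as a multiple of the 75th percentile of the array, was 2.66 to 2.77 in wild type and 2.67 to 3.09 in the knockout. The T cell median had an r of 0.82 with Lef1 and 0.79 with Tcf7 probe 1. Each had an exact permutation adjusted p of 0.577 over 140 relations. With Tcf7 probe 2 the r was 0.49, and with Tcf7l2 probes 1, 2 and 3 it was -0.0065, 0.17 and 0.47. The part of T cells in the values of Tcf7l1, Lef1 and Tcf7 was not tested.

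The other Tcf/Lef genes overlapped between genotypes on each of their 6 probes. Tcf7, a factor known from T cell development, was measured by a pair of probes 624 bases apart on chromosome 11. On probe 1 its signal was -0.98, -1.07 and -1.39 in wild types 1 to 3 and -0.61, -1.27 and -0.70 in knockouts 1 to 3. Knockouts 1 and 3 lay above every wild type, and knockout 2 lay among them. The difference was 0.29 (standard error 0.21), and 0.53 within slide 2. Probe 2 gave the same picture of knockout 2 as low, at -4.27, but a difference of 0.056 (standard error 0.27). That difference was 0.37 within slide 2 and ran from -0.12 without knockout 1 to 0.32 without knockout 2, with negative values also without wild type 3 (-0.10) and knockout 3 (-0.038). The software's error reached 13.4% of the signal on this probe.

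Lef1, the lymphoid enhancer-binding factor, varied least of the 14 probes, over a range of 0.25 on the log2 scale. Its signal was -3.24, -3.39 and -3.34 in wild types 1 to 3 and -3.27, -3.25 and -3.14 in knockouts 1 to 3. Knockout 3 was highest and wild type 1 next, while wild types 2 and 3 were lowest. The difference was 0.11 (standard error 0.10), and 0.12 within slide 2.

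Tcf7l2, the broadly expressed member of the family, was read by 3 probes that lie far apart on chromosome 19. Probe 1, at 55817272 to 55817331, was nearly level, from -2.20 in knockout 1 to -1.77 in knockout 2, with a difference of 0.028 (standard error 0.14) and 0.030 within slide 2. Leaving out 1 array gave -0.074 without knockout 2 to 0.14 without knockout 1. Probe 2 was at -1.85, -1.89 and -2.72 in wild types 1 to 3 and at -2.85, -1.95 and -2.09 in knockouts 1 to 3. Wild type 3 and knockout 1, 1 ovary of each genotype, were therefore low. The difference on probe 2 was -0.14 (standard error 0.33). It was 0.42 within slide 2, and ran from -0.42 without wild type 3 to 0.14 without knockout 1, with a positive value also without wild type 1 (0.011). Without knockouts 2 and 3 in turn it was -0.31 and -0.24.

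Probe 3 of Tcf7l2, at 56006638 to 56006697, was low in the same 2 ovaries, at -5.14 and -5.25 against -4.59 to -4.16 in the other 4. Its difference was 0.16 with a standard error of 0.33, and 0.57 within slide 2. It ran from -0.053 without wild type 3 to 0.50 without knockout 1, with -0.047 without knockout 3 and 0.30 without wild type 2. This probe was dim, and the software's error reached 20.2% of its signal. Probes 2 and 3 followed each other over the 6 arrays with an r of 0.88, which rested on those 2 ovaries: without the 2 arrays farthest from the median it was -0.94. Within slide 2, which holds both, it was 0.98.

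To set Tcf7l1 against its relatives within each ovary, the mean of Tcf7l2 probe 1, Tcf7 probe 1 and Lef1 was subtracted from it, which removes any scaling of the array. The gap was 0.31, 0.33 and 0.27 in wild types 1 to 3 and 0.69, 0.75 and 0.59 in knockouts 1 to 3. The groups did not overlap, and the gap was wider by 0.37 in the knockout mean, or 0.41 within slide 2. Since Tcf7l1 was chosen for its own difference, the gap carries no test.

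**Figure D2:**
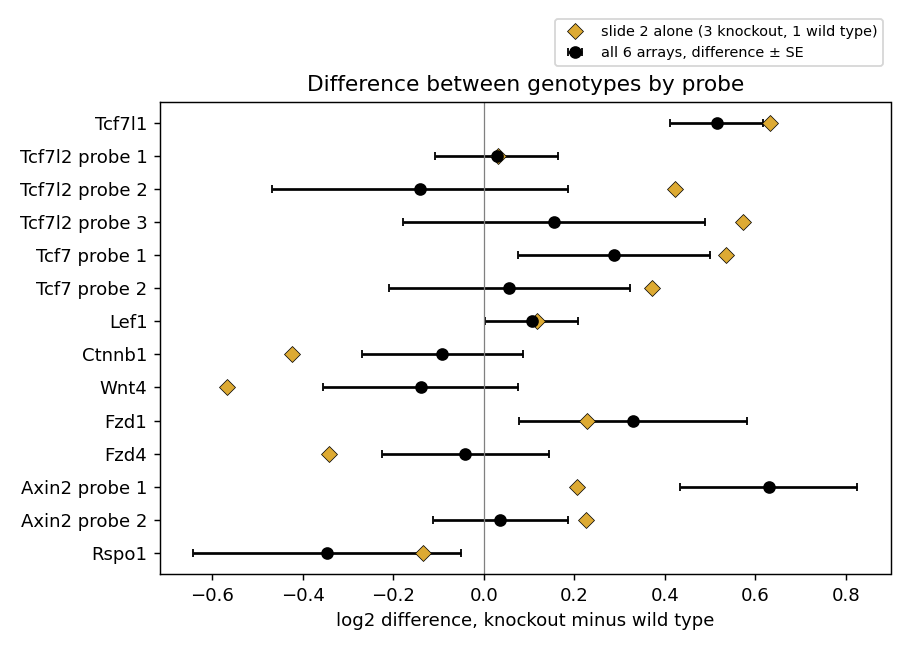
Log2 difference between knockout and wild type for each of the 14 probes, with circles and bars for all 6 arrays and their standard error, and diamonds for slide 2 alone (3 knockouts against wild type 3). Tcf7l1 lies at 0.51 and 0.63, while Axin2 probe 1 lies at 0.63 over all arrays and at 0.21 within slide 2.

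Beta-catenin transcript and Wnt4 were high and low in the same ovaries. Ctnnb1, which encodes the protein that carries the signal to the nucleus and also links cadherins at cell junctions, was at 2.36, 2.48 and 2.92 in wild types 1 to 3 and at 2.68, 2.36 and 2.45 in knockouts 1 to 3. Wnt4 was at -0.09, 0.03 and 0.61 in the wild types and at 0.24, -0.17 and 0.07 in the knockouts. Wild type 3 was highest and knockout 1 next for both genes. Differences between genotypes were -0.092 (standard error 0.18) for Ctnnb1 and -0.14 (standard error 0.22) for Wnt4. Within slide 2 they were -0.42 and -0.57, and both were 0.074 without wild type 3.

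Over the 6 arrays Pearson's r between Ctnnb1 and Wnt4 was 0.98 (exact permutation p = 0.0056, adjusted p = 0.506 over 91 pairs of probes), Spearman's rho was 0.89 (exact permutation p = 0.0333, adjusted p = 0.848), and r was 0.88 without the 2 arrays farthest from the median. With each genotype's mean removed it was also 0.98. Tcf7l2 probe 2 ran against Ctnnb1, with an r of -0.87 (exact permutation p = 0.0458, adjusted p = 0.712) and a rho of -0.77 (exact permutation p = 0.103, adjusted p = 0.848). Its r with Wnt4 was -0.82 (exact permutation p = 0.0431, adjusted p = 0.712) and its rho -0.77 (exact permutation p = 0.103, adjusted p = 0.848). Without the 2 arrays farthest from the median these were -0.32 and -0.47, so that they rest on wild type 3 and knockout 1. Slide 2 holds both of these arrays, so r within it is not a separate check. Over its 4 arrays, r was 0.98 for Ctnnb1 with Wnt4. For Tcf7l2 probe 2 it was -0.86 with Ctnnb1 and -0.80 with Wnt4. These correlations were added after the values were seen. The smallest p that 720 orderings of 6 arrays can give is 0.0014 for r and 0.0028 for rho, which for a single pair of 91 adjusts to 0.126 and 0.253, so no pair could pass on its own.

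The ovaries that were high in Ctnnb1 and Wnt4 were also high in the median of luteal and endothelial markers and low in that of granulosa markers. Not every gene followed its list: luteal Akr1c18 was lowest in wild type 3, at -2.23, and granulosa Foxl2 was highest there, at 3.31. The corpus luteum median of 7 genes, centred as above, was 0.88 in wild type 3 and 0.47 in knockout 1, against -1.51 to 0.14 in the other ovaries. One of these genes, Hsd3b1, had no value in wild types 1 and 2. The granulosa median over 9 genes was -0.62 and -0.19 in these 2 and 0.00 to 0.57 in the others. Summed over the 6 luteal genes measured on every array, the level was 90.8 to 155 times the 75th percentile in wild type and 29.2 to 127 times in the knockout. For the 9 granulosa genes it was 164 to 276 times and 191 to 314 times. The endothelial median of 7 genes was 0.16 and 0.52 in wild type 3 and knockout 1 and -0.30 to 0.08 in the others, with a summed level of 8.07 to 10.8 times in wild type and 8.78 to 12.7 times in the knockout. Wnt4 had an r of 0.81 (exact permutation p = 0.0764, adjusted p = 0.577 over 140 relations) and a rho of 1.00 (exact permutation p = 0.0028, adjusted p = 0.194) with the luteal median. Tcf7l2 probe 2 had an r of -0.90 (exact permutation p = 0.0056, adjusted p = 0.324) and a rho of -0.83 (exact permutation p = 0.0583, adjusted p = 0.628) with the endothelial median. Without the 2 arrays farthest from the median these r were 0.98 and -0.83, and within slide 2 they were 0.89 and -0.87. The part of these cell types in the Wnt4, Ctnnb1 and Tcf7l2 values was not tested.

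**Figure D3:**
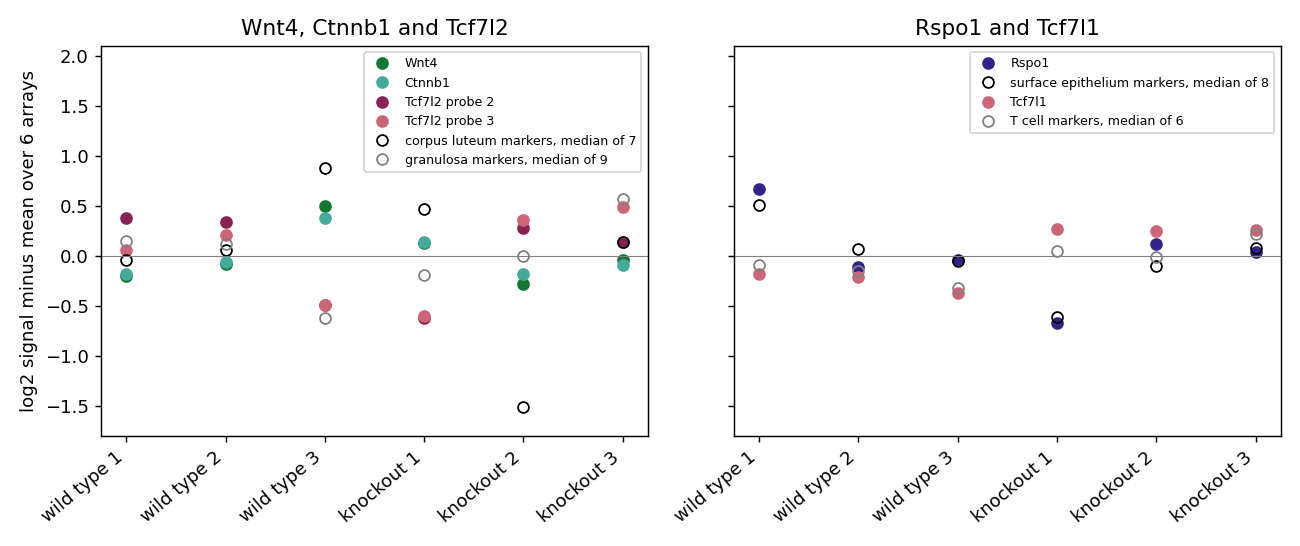
Log2 signal on each of the 6 arrays minus the mean over the 6, filled circles for single probes and open circles for the median of a marker list, each gene centred on its mean. Wnt4 and Ctnnb1 are highest and Tcf7l2 probes 2 and 3 lowest in wild type 3 and knockout 1 (left), and Rspo1 is high in wild type 1 and low in knockout 1 together with surface epithelium markers (right).

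Rspo1, the R-spondin of the female gonad, varied most of the 14 probes, over a range of 1.35. Its signal was 2.36, 1.58 and 1.65 in wild types 1 to 3 and 1.02, 1.81 and 1.73 in knockouts 1 to 3. Wild type 1 stood above and knockout 1 below the remaining 4, which lay between 1.58 and 1.81. The difference was -0.35 (standard error 0.30), -0.14 within slide 2, -0.098 when wild type 1 was left out and -0.096 when knockout 1 was. Markers of surface epithelium and mesothelium, the covering of the ovary, were highest in wild type 1 at 0.51 and lowest in knockout 1 at -0.61. In the other ovaries this median over 8 genes was -0.10 to 0.08, and the summed level was 32.9 to 46.4 times the 75th percentile in wild type and 24.2 to 35.8 times in the knockout. The r between Rspo1 and these markers was 0.95 (exact permutation p = 0.0514, adjusted p = 0.577 over 140 relations) and the rho 0.60 (exact permutation p = 0.242, adjusted p = 0.785). It was -0.55 without the 2 arrays farthest from the median, so it rests on wild type 1 and knockout 1, and 0.94 within slide 2, which holds knockout 1. Each of the 14 probes was set against each of 10 marker lists in this way, after the values were seen. A single relation of the 140 at the smallest possible p adjusts to 0.194 for r and 0.389 for rho, so none could pass on its own.

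The Frizzled receptors Fzd1 and Fzd4 differed in which ovaries were high. Fzd1 was at -0.12, -0.06 and 0.06 in wild types 1 to 3 and at 0.48, -0.28 and 0.67 in knockouts 1 to 3. The wild types lay close together, while knockouts 1 and 3 lay above all of them and knockout 2 below. The difference was 0.33 (standard error 0.25), 0.23 within slide 2, 0.14 without knockout 3 and 0.62 without knockout 2.

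Fzd4, whose product is also the receptor for norrin, was at 0.99, 0.96 and 1.43 in wild types 1 to 3 and at 0.98, 0.92 and 1.35 in knockouts 1 to 3. Wild type 3 and knockout 3 were high and the remaining 4 ovaries lay between 0.92 and 0.99. The difference was -0.041 (standard error 0.18), and -0.34 within slide 2. It was 0.11 without wild type 3, 0.012 without knockout 1 and 0.041 without knockout 2.

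Axin2, a scaffold of the destruction complex that is itself induced by Wnt signalling, was read by a pair of probes 8107 bases apart on chromosome 11, and they disagreed. Probe 1, at 108812034 to 108812093, was at -3.89, -3.83 and -3.23 in wild types 1 to 3 and at -3.13, -2.98 and -2.96 in knockouts 1 to 3. The genotypes did not overlap, but the gap between wild type 3 and the lowest knockout was 0.097. The wide step lay between the slides: the 2 arrays of slide 1 had a mean of -3.86 and the 4 of slide 2 a mean of -3.08. With wild type 3 as the only wild type on slide 2, the slide cannot be told apart from genotype or from this sample's own level. The difference between genotypes was 0.63 with a standard error of 0.20 over all arrays and 0.21 within slide 2.

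Probe 2 of Axin2, at 108803927 to 108803986, was at -4.64, -4.80 and -5.00 in the wild types and at -4.91, -4.86 and -4.56 in the knockouts. Its genotypes overlapped widely, with a difference of 0.036 (standard error 0.15), and 0.23 within slide 2. The sign turned without wild type 3 (-0.058), without knockout 3 (-0.071) and with normexp background correction (-0.069). The probes had an r of -0.19 over the 6 arrays and of 0.81 over the 4 of slide 2. Of the 60 bases, 48 are A or T in probe 1, the most of the 14 probes, and 31 in probe 2. Probe 2 was dim, with a software error of up to 19.4% of the signal. Its level followed the granulosa markers, with an r of 0.93 (exact permutation p = 0.0069, adjusted p = 0.324) and a rho of 1.00 (exact permutation p = 0.0028, adjusted p = 0.194). The r was 0.84 without the 2 arrays farthest from the median and 0.97 within slide 2.

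Beyond the 10 genes, 100 further genes of the pathway were listed by role, giving 110 in all, of which 92 were measured. Of these 92 genes, 45 had a positive and 47 a negative difference, and the median was -0.012 (0.094 within slide 2) against -0.017 over all 19412 measured genes. None was called in either direction by limma. Of the 82 measured genes outside the 10, Fzd10, Nkd2 and Myc had an unadjusted p under 0.05, or 3.66% against 3.95% of all probes. The genotypes did not overlap in 4 of the 82, these 3 and Crebbp, or 4.88% against 8.66% of all probes. These lists were drawn up with results of these arrays known, so they give no independent support to a direction.

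Among nuclear factors and partners of Tcf/Lef, 12 of 20 differences were positive and 8 negative (median 0.022, and 0.11 within slide 2). Tle1 and Tle3, Groucho-type corepressors, differed by -0.28 (standard error 0.16, adjusted p = 1.00) and -0.20 (standard error 0.14, adjusted p = 1.00), by limma. Tle1 was lower by all 3 of its probes, between -0.34 and -0.25. Crebbp, an acetyltransferase that acts as a coactivator, differed by 0.15 with a standard error of 0.096. All 3 had a difference of the same sign within slide 2, at -0.16, -0.056 and 0.16.

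Among Wnt ligands and the genes of their secretion, 6 of 13 differences were positive and 7 negative, around a median of -0.018. A further 8 listed ligands, among them Wnt2, Wnt3 and Wnt7a, did not reach the background filter. Wnt1 differed by 0.44 with a standard error of 0.23, but by -0.035 within slide 2, and its 2 lowest values lay on slide 1 (-2.28 and -1.96 against -1.49 to -1.36). Wnt5a, a ligand known mainly for beta-catenin-independent signalling, differed by -0.32 (standard error 0.21) and by -0.51 within slide 2. Wnt11 differed by 0.26 (standard error 0.17) and by 0.41.

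Frizzled receptors and co-receptors were all measured, 7 of 15 above and 8 below 0, around a median of -0.013 (0.14 within slide 2). Fzd10 was at -4.50, -4.63 and -4.99 in wild types 1 to 3 and at -4.35, -3.95 and -4.35 in knockouts 1 to 3. All 3 knockouts lay above the wild types, the closest values being -4.35 and -4.50. The difference of the group means was 0.49 (standard error 0.18, limma adjusted p = 1.00), and 0.78 within slide 2. This probe was dim: on wild type 3 the dimmest spot called well above background was at -5.71. The co-receptor Lrp5 differed by -0.48 with a standard error of 0.22 over all arrays and by 0.022 within slide 2. It was at 0.55 and 0.64 on slide 1 and at -0.20 to -0.03 on slide 2, where wild type 3 is the only wild type. Fzd9 differed by 0.28 with a standard error of 0.24.

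For R-spondins and their receptors and ligases, 5 of 8 differences were negative, around a median of -0.25 (-0.019 within slide 2). Rspo3 differed by -0.64 (standard error 0.27) and by -0.19 within slide 2. The ubiquitin ligase Znrf3 differed by -0.32 (standard error 0.17) and by -0.65 within slide 2. Lgr6, an R-spondin receptor, differed by 0.53 (standard error 0.29) and 0.86, and its highest value was -3.18 in knockout 1.

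For secreted and membrane inhibitors, 6 of 9 differences were negative (17 genes were listed), around a median of -0.070 (0.067 within slide 2). Notum, an enzyme that inactivates Wnt ligands, differed by 0.30 (standard error 0.14) and by 0.060 within slide 2. Frzb differed by 0.52 with a standard error of 0.54. Sfrp2 and Sfrp4, secreted Frizzled-related proteins, varied far more than any of the 10 genes above. Sfrp2 was at -0.78, -3.35 and -2.60 in wild types 1 to 3 and at -0.25, -4.24 and 1.04 in knockouts 1 to 3, which differed by 1.09 (standard error 1.40). Sfrp4, singled out after its values were seen, was at 0.27 in knockout 2 and at 4.64 to 5.95 in the other 5 ovaries. Knockout 2 also had the lowest luteal median, -1.51, and the part of luteal cells in this value was not tested. Its difference was -1.04 over all arrays, -1.32 within slide 2 and 0.74 when knockout 2 was left out.

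For beta-catenin and its cytoplasmic regulators, 12 of 21 differences were positive, around a median of 0.045 (0.090 within slide 2). Nkd2, an inhibitor that binds Dishevelled, was at -1.11, -1.18 and -0.65 in wild types 1 to 3 and at -0.61, -0.42 and -0.33 in knockouts 1 to 3. The groups did not overlap, yet wild type 3 lay nearer to knockout 1 than to the wild types of slide 1. Its difference was 0.53 over all arrays (standard error 0.17, limma adjusted p = 1.00), 0.19 within slide 2 and 0.075 by a second probe. The tankyrase Tnks differed by 0.24 (standard error 0.13) and the Dishevelled gene Dvl3 by 0.27 (standard error 0.18).

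For known targets of Wnt and Tcf/Lef, 9 of 16 differences were positive and 7 negative, around a median of 0.061 (0.13 within slide 2). Myc, a driver of growth and division, was at 0.75, 0.73 and 0.90 in wild types 1 to 3 and at 0.35, -0.04 and 0.00 in knockouts 1 to 3. Every knockout lay below every wild type. The difference of the group means was -0.69 (standard error 0.14, limma adjusted p = 1.00), and -0.79 within slide 2. The closest values were 0.35 in knockout 1 and 0.73 in wild type 2. Axin2, Nkd2 and Notum, feedback inhibitors among the targets, had positive differences over all arrays that were 0.21, 0.19 and 0.060 within slide 2. By their other probes Axin2 and Nkd2 differed by 0.036 and 0.075 over all arrays. Other targets that restrain the pathway were mixed: Znrf3, Nkd1 and Apcdd1 differed by -0.32, -0.13 and -0.11, and Rnf43 by 0.22. The targets Lef1 and Tcf7 are described above.

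**Figure D4:**
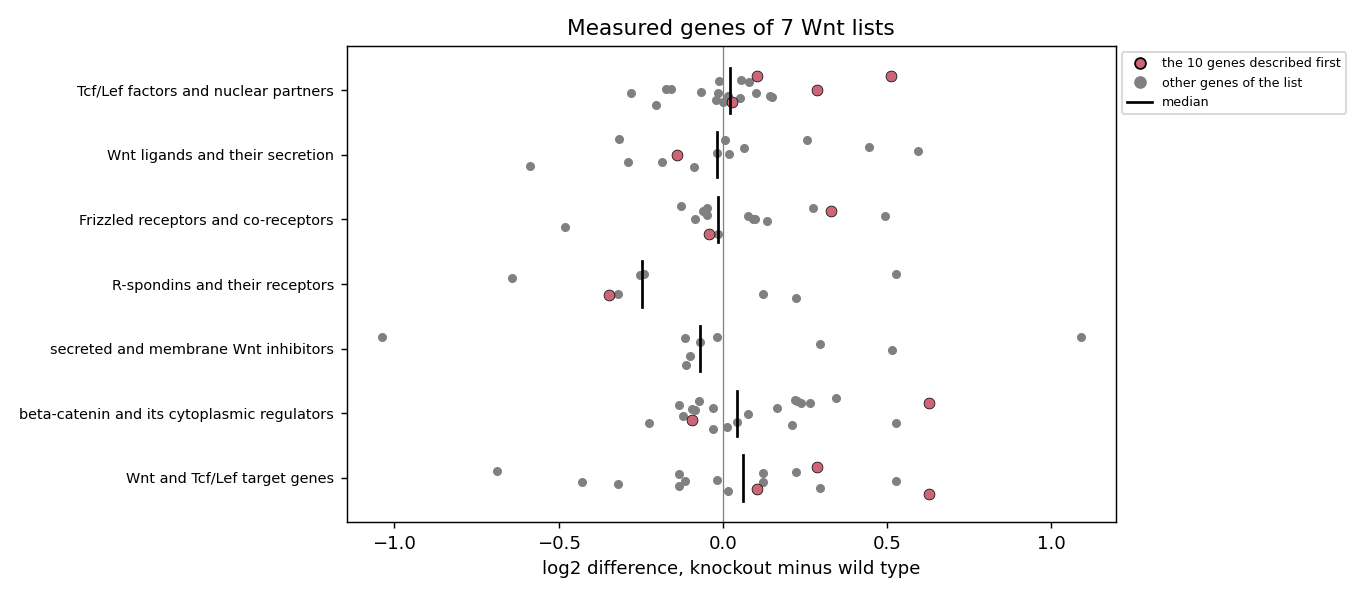
Log2 difference between knockout and wild type for each measured gene of 7 Wnt lists, 1 point per gene, red for the 10 genes described first and grey for the rest, with the list median as a black bar. A gene in several lists appears in each; the medians run from -0.25 for R-spondins and their receptors to 0.061 for target genes.

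The 24179 other probes measured on all arrays were ranked by Pearson's r with Tcf7l1 over the 6 arrays. With clone and predicted gene names left out, the highest were Hic2 (r = 0.996), Zfp821 (0.988), Nnt (0.984), Kctd18 (0.983) and Tigd3 (0.979, rank 6). These values describe 6 points in 2 separate groups and were picked as the highest of many. With each genotype's mean removed, r was 0.92 for Hic2, 0.85 for Zfp821, 0.62 for Nnt, 0.65 for Kctd18 and 0.92 for Tigd3. Tcf7l1 was nearly level among the knockouts (SD 0.0060), so r with the genotype means removed rests almost wholly on the wild types. Of these, wild type 3, the least precise array, lay farthest from their mean. Hic2, a zinc finger gene, was at -0.80, -0.83 and -0.92 in wild types 1 to 3 and at -0.51, -0.50 and -0.54 in knockouts 1 to 3. Nnt, the mitochondrial transhydrogenase, differed by 1.32, the other 4 by 0.19 to 0.36.

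Of the other probes of the 10 genes, Lef1 came closest, with an r of 0.68 and rank 1427 of 24179, followed by Axin2 probe 1 (r = 0.67, rank 1472) and Tcf7 probe 1 (r = 0.61, rank 2138). Within genotypes Lef1 had an r of 0.20 and Axin2 probe 1 of -0.98 with Tcf7l1, and Tcf7 probe 1 had 0.56. As above, each r within genotypes rests almost wholly on the wild types, chiefly wild type 3. The 3 probes of Tcf7l2 had an r of 0.088, -0.020 and 0.28, at ranks 10125, 11991 and 6783. Wnt4, Ctnnb1, Rspo1 and Fzd4 had negative values, from -0.45 to -0.26. Of the 82 other Wnt genes, 7 ranked above Lef1, led by Crebbp (r = 0.88, rank 215) and Fzd10 (r = 0.86, rank 293). With each genotype's mean removed, these had an r of 0.17 and 0.70. The target Myc had an r of -0.94, at rank 24106.

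**Figure D5:**
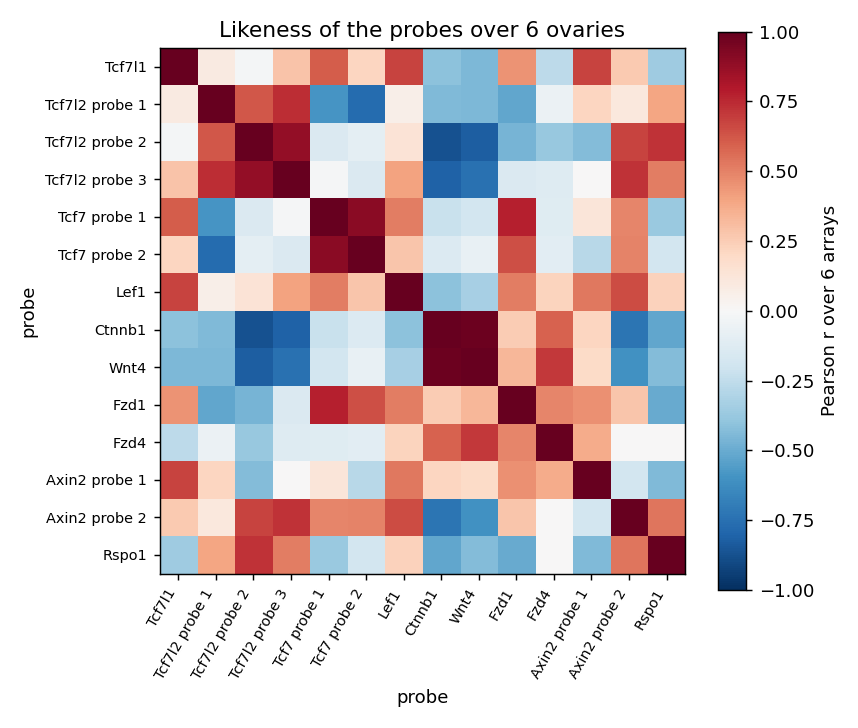
Pearson's r over the 6 arrays between each pair of the 14 probes, from blue (-1) through white (0) to red (1). Ctnnb1 and Wnt4 (0.98) and the probes of Tcf7 (0.90) form the darkest red squares, and Tcf7l2 probes 2 and 3 are blue against Ctnnb1 and Wnt4.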

How the data were processed

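Each of the 6 arrays was read from the deposited Agilent Feature Extraction 10.7.1.1 file, in which the processed intensity had its background subtracted and a spatial trend removed and was not normalized between arrays, per the file headers. The steps behind the authors' deposited series table, also of intensity values, were not given in the sources used here; its columns share a median of 119.8, and it served as an alternative.

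Of 43020 spots per array that were not controls, those marked as outliers were left out and spots of a probe were averaged as log2 values. Log2 of the 75th percentile over non-control spots was subtracted. The filter kept probes well above background on every array of at least 1 genotype (24415 probes, 19412 genes). In gene lists the kept probe with the highest mean stood for a gene, and symbols were updated through RefSeq accessions of a GRCm38 table (of 39429 probes, 26412 matched an accession, 3854 a current symbol and 735 an older one). The comparison of genotypes used limma 3.58.1 (lmFit, eBayes; R 4.3.3) on all 6 arrays, two-sided, with Benjamini-Hochberg adjustment over all kept probes; the fit was tested on simulated data. Precision is limited by 3 arrays per genotype.

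The members and lists were chosen with earlier results of these data known. Named besides the 10 genes were, from each list, the 3 genes with the smallest unadjusted p, and the 5 named genes most like Tcf7l1. Marker lists of granulosa, theca, luteal, oocyte, surface epithelial, oviduct, endothelial, smooth muscle, fat and T cells held 0 called genes. Their median differences were 0.075, -0.022, -0.47, -0.19, -0.33, -1.23, 0.14, -0.39, -0.43 and 0.34, in that order. Insl3 and Trac had no probe under their names. Alternatives were another background correction, 3 other scalings or sources, 2 filters, slide as a fixed or random block or slide 2 alone, array weights, the replicate number as a block, and each array left out. Tables were made with pandas 2.3.3 and plots with matplotlib 3.10.9.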

Additional observations from a re-analysis of the deposited data

How the results depend on the processing

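None of the 14 probes was called by limma in any of 17 alternatives; slide as a fixed block and slide 2 alone give the same differences, both with wild type 3 as the single wild type, and are not separate checks. The Tcf7l1 difference stayed positive in all 17, at 0.37 with normexp background correction, at 0.63 with slide as a fixed block or slide 2 alone, and at 0.45 to 0.55 with each array left out. The gap of Tcf7l1 to its relatives was 0.28 with normexp and 0.34 to 0.42 with each array left out. The number of called probes was 0 with no filter on background, with slide as a fixed block, on slide 2 alone and with the replicate block, and 6 with array weights. At an unadjusted p under 0.05 these held 1805, 2389, 1604, 1023 and 3769 probes. With each array left out it was 0 to 19. The replicate numbers were given here and carry no pairing from the labels. Same-numbered arrays had correlations of -0.33, 0.30 and -0.027 in their deviations from the group means. With 3 arrays per genotype these cannot show whether samples were paired. The replicate block called no listed gene.

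The median over all Wnt genes was 0.094 with slide as a fixed block or slide 2 alone, 0.028 with slide as a random block, and -0.015 to 0.039 with each array left out. For Tcf/Lef factors and partners it was -0.033 with normexp, 0.11 with slide fixed or slide 2 alone, and 0.0077 to 0.051 over arrays left out. For R-spondins it was -0.019 with slide fixed or slide 2 alone, -0.13 with array weights and -0.22 to -0.070 over arrays left out, and for beta-catenin regulators 0.090 with slide fixed or slide 2 alone. Over arrays left out it ran from -0.13 to -0.0064 for ligands, -0.11 to 0.24 for inhibitors and -0.015 to 0.16 for targets. The cause of these shifts was not tested. Signal over background limits Tcf7l2 probe 3 and Axin2 probe 2, which lay as little as 0.57 and 0.71 log2 units above the dimmest spot called well above background on the same array.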
